A study of Mus musculus with 4 samples.

Results

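The genes described here were Trem2, Tyrobp, Gpnmb, Cd9, Spp1 and Atp6v0d2, 6 of the 31054 rows of the count tables, picked by gene symbol as genes of lipid-associated macrophages and followed across the macrophage kinds, dendritic cells and the other cell classes of aged gonadal white adipose tissue. Cells came from the stromal vascular fraction (the tissue without its mature adipocytes) of 18-month-old male p16-CreERT2/R26-LSL-tdTomato mice given tamoxifen. The inducible Cre in these mice is driven from p16 (Cdkn2a), a gene switched on in senescent cells, so tdTomato (Tom) marks cells in which that promoter was active when tamoxifen was given. Stromal vascular cells stained for CD31 and CD45, the latter a surface protein of blood-derived cells, were sorted by flow cytometry into 4 libraries, whose labels combine CD45- or CD45+ with Tom+ or Tom-. Values are given throughout with both CD45- libraries first and, within each label, Tom+ before Tom-. All 4 libraries share the genotype, the age and tamoxifen, and the number of mice behind each is not given in the sources used here.

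TREM2 is a receptor on macrophages and related cells that binds lipids and lipoproteins such as apolipoprotein E, and it signals through the adaptor DAP12, the product of Tyrobp, which recruits the kinase Syk. In adipose tissue, macrophages that take up lipid from dying or overfilled adipocytes switch on Trem2 together with genes for lipid uptake and lysosomes, and these cells are known as lipid-associated macrophages. Gpnmb encodes a transmembrane glycoprotein of endosomes and lysosomes, Cd9 a tetraspanin that organises proteins in the plasma membrane, Spp1 the secreted phosphoprotein osteopontin, which binds CD44 and integrins, and Atp6v0d2 the d2 subunit of the proton pump V-ATPase, best known from osteoclasts.

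Unique molecular identifier (UMI) totals were 139397501, 110410319, 64083756 and 136459745, and 3886, 3674, 1927 and 4391 cells were kept, with a median of 18331 to 19516 UMIs per cell. The tdTomato level followed the Tom labels, at 713, 15.8, 714 and 18.7 UMIs of the gene per 1000000 UMIs of the same cells (CPM). Ptprc, which encodes CD45, did not follow the CD45 labels: it stood at 217, 157, 223 and 188 CPM and was found in 80.3%, 49.3%, 78.8% and 52.1% of cells. Each Tom+ library is compared with the Tom- library of the same CD45 label, as the CD45- pair and the CD45+ pair, and no value is read as a difference between CD45- and CD45+ cells. Barcodes recurred between libraries, most often between the library labelled CD45- Tom- and the library labelled CD45+ Tom-, which shared 4394. Of the kept cells, 605, 1426, 220 and 1304 carried a barcode also found in another library. No more than 16 barcodes of any pair of libraries were kept as cells in both. Each group is 1 library, so comparisons are between libraries, no p-value is given, and the 95% intervals cover counting error only. Within a class, more RNA of a gene per cell and a larger portion of high cells cannot be told apart in a summed level.

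Cell classes were named from marker genes that exclude the 6 genes, and the clustering genes excluded them too. Lipid-associated macrophage-like cells (393, 162, 183 and 206 cells, 944 in all) had all 8 of 8 macrophage markers raised. They were told from the Arg1-high (1126 cells) and resident (378 cells) macrophage-like cells by Fabp5, Lpl, Mmp12, Ctsk, Acp5, Cd36 and Itgax. These 7 markers summed to 8561 to 9803 CPM in them, against 4537 to 5158 CPM in Arg1-high and 3766 to 4635 CPM in resident cells. The Arg1-high markers (Arg1, Car6 and Olr1) summed to 5128 to 5742 CPM in Arg1-high, 2196 to 3569 CPM in resident and 52.2 to 60.3 CPM in lipid-associated cells. The kinds thus differed in level and shared markers. Lipid-associated cells made up 51.8%, 28.5%, 46.7% and 28.3% of the macrophage-like cells of each library. Unnamed clusters 18, 20 and 22 also had 6 to 8 macrophage markers raised, beside plasma cell, cycling or T cell markers, and were kept apart. Cluster 18 held 3.96%, 0.0544%, 4.57% and 0.159% of the cells of each library, cluster 20 3.17%, 0.191%, 2.65% and 0.820%, and cluster 22 1.36%, 0.817%, 1.25% and 0.911%.

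Trem2 (ENSMUSG00000023992, mm10 chr17:48346401-48354147, + strand), Gpnmb (ENSMUSG00000029816, chr6:49036546-49070929, + strand) and Atp6v0d2 (ENSMUSG00000028238, chr4:19876841-19922605, − strand) were the 3 members higher in lipid-associated than in other macrophage-like cells by at least 2-fold in every library. Spp1 (ENSMUSG00000029304, chr5:104435118-104441050, + strand) was lower there, while Tyrobp (ENSMUSG00000030579, chr7:30413760-30417585, + strand) and Cd9 (ENSMUSG00000030342, chr6:125460266-125494791, − strand) did not reach 2-fold in every library. Because these genes had opposite patterns among macrophages, the 250 bases before the RefSeq start are shown for Trem2 and Gpnmb, which were high together, and for Spp1 (its upstream start site), which was high elsewhere. The table of RefSeq windows used here (GRCm38.p6) matched 4 of the 6 genes, and windows of Tyrobp and Atp6v0d2 were not analysed here. Capitals mark matches, on either strand, to 4 motifs searched: CACGTG (E-box), TCATGTG (M-box), TGANTCA (AP-1-like, with any base at N) and GAGGAA (PU.1 core).
Trem2, chr17:48346151-48346400, + strand: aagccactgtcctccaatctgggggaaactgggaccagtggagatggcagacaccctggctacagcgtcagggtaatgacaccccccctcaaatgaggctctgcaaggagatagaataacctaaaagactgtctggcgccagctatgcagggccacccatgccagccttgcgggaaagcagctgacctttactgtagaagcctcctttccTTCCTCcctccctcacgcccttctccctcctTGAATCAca
Gpnmb, chr6:49036268-49036517, + strand: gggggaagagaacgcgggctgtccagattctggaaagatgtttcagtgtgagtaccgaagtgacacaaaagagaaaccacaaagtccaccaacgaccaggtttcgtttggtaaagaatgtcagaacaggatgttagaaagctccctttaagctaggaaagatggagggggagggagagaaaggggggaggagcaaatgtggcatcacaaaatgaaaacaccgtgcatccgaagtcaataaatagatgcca
Spp1, chr5:104434861-104435110, + strand: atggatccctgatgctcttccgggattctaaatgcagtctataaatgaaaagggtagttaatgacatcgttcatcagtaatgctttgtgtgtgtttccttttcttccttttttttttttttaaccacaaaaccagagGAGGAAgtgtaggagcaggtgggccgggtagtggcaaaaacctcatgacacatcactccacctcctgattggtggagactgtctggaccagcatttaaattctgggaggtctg
The Trem2 window held TGANTCA, as TGAATCA from 9 to 3 bases before the start, and GAGGAA on the other strand from 40 to 35 bases before it. The Spp1 window held GAGGAA from 113 to 108 bases before the start, and the Gpnmb window, the Cd9 window and the second Spp1 window held none of the 4. These letters are found in 6.75% (TGANTCA), 23.3% (GAGGAA), 6.02% (CACGTG) and 3.25% (TCATGTG) of 32851 such windows, and a match is a description of the sequence only.

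Trem2, the receptor, was at 1350, 1415, 1419 and 1415 CPM in lipid-associated macrophage-like cells. This was the highest class in all 4 libraries, with a range that overlapped no other class. Among the named macrophage kinds, resident cells followed with 560, 620, 575 and 631 CPM and Arg1-high cells with 469, 411, 396 and 444 CPM, so these kinds kept 1 order in every library. Unnamed cluster 22 had 489 to 760 CPM, cluster 20 342 to 434 CPM and cluster 18 283 to 421 CPM, in libraries with at least 20 of their cells. By median, cluster 22 stood above the resident cells. Over single lipid-associated cells the median was 1158, 1149, 1116 and 1226 CPM and the top 10% of cells held 29.8% to 34.0% of the Trem2 UMIs. Among 38 to 98 dendritic-like cells Trem2 was at 68.3 CPM in the library labelled CD45- Tom+, 28.4 in CD45- Tom- and 28.9 in CD45+ Tom-; the library labelled CD45+ Tom+ had only 15 such cells and is given no level. Monocyte-like cells, present in number only in the Tom- libraries, were at 105 and 77.5 CPM. B cell-like cells were at 16.1 to 28.7 CPM and plasma cell-like cells at 5.04 to 9.46 CPM.

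**Figure D1:**
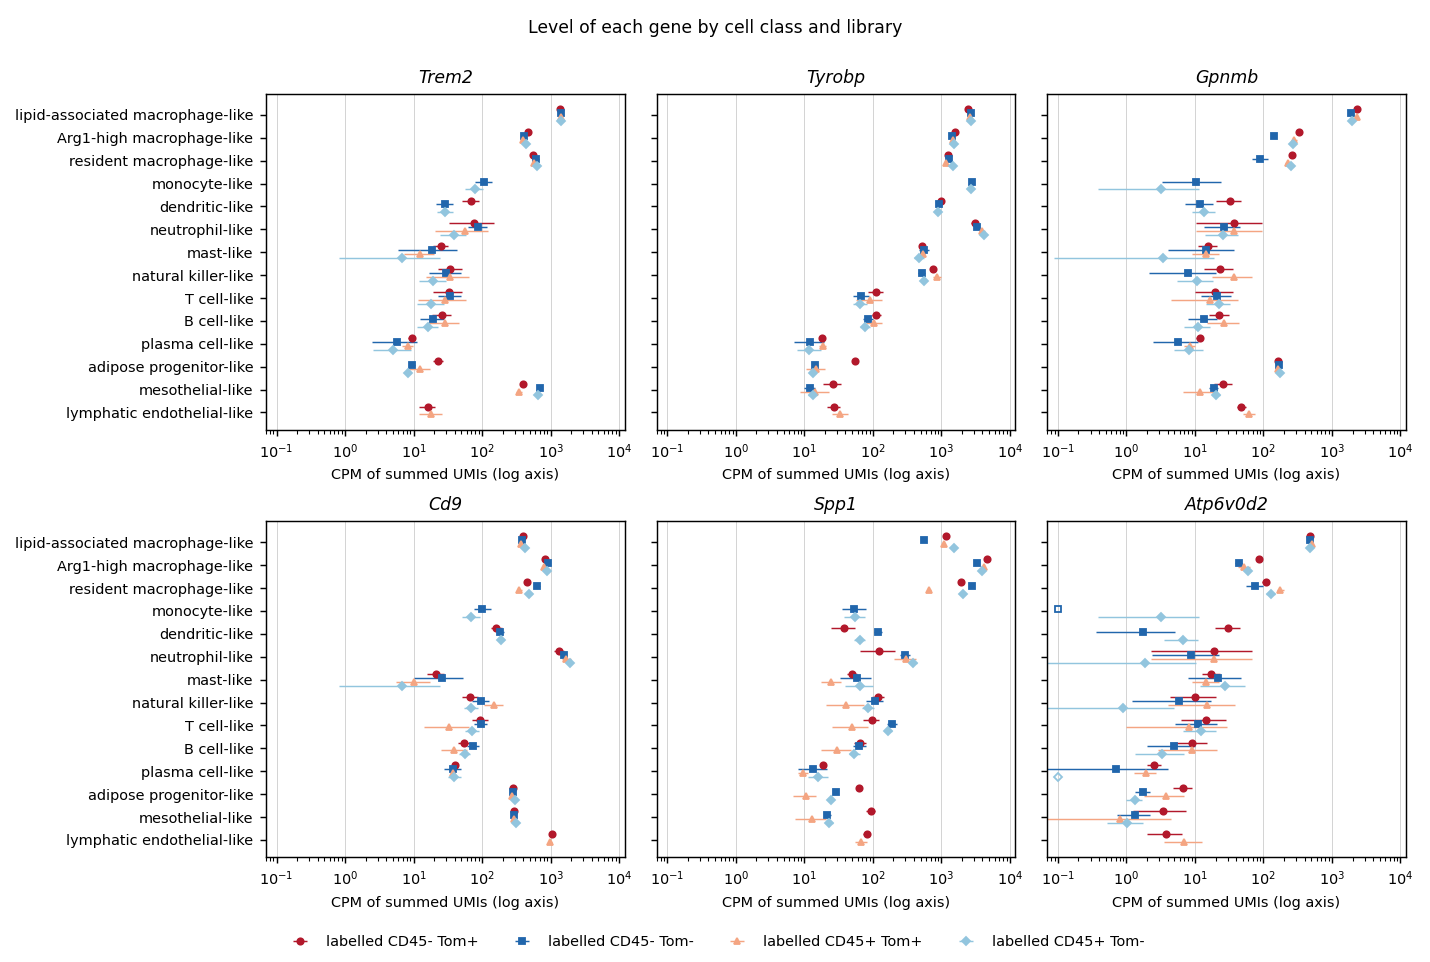
CPM of summed UMIs (log axis, bars are 95% counting intervals) for the 6 genes in each class with at least 20 cells in a library; 1 symbol per library, open symbols at the left edge mark 0 UMIs. Trem2, Gpnmb and Atp6v0d2 were highest in lipid-associated macrophage-like cells, Spp1 in Arg1-high cells, and Tyrobp and Cd9 in neutrophil-like cells.

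Mesothelial-like cells, the lining cells of the fat pad, were the non-myeloid class with a high Trem2 level. Its values were 395 (95% interval 367 to 426), 702 (687 to 718), 347 (315 to 381) and 665 (651 to 680) CPM, from 68, 379, 34 and 391 cells. Both Tom- libraries stood above every value of the resident and Arg1-high macrophage-like cells, and both Tom+ libraries stood just below the lowest Arg1-high value or under it. After thinning each cell to 2000 UMIs, 54.5%, 52.8%, 52.9% and 50.9% of mesothelial-like cells had a Trem2 UMI, against 3.25%, 2.56%, 2.34% and 1.72% of plasma cell-like cells, which were deeper (median 35970 to 39394 against 26932 to 36893 UMIs). The share of mesothelial-like cells with a Trem2 UMI without thinning was 92.6% to 94.1%, and that of plasma cell-like cells 15.5% to 27.9%. In the Tom- libraries mesothelial-like cells gave 43.3% and 35.4% of all Trem2 UMIs, more than the 30.3% and 34.0% from lipid-associated macrophage-like cells, whereas in the Tom+ libraries they gave 2.7% and 3.3% against 58.2% and 53.8%.

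The Trem2 of mesothelial-like cells came with little of its adaptor. Tyrobp was at 25.9, 12.0, 14.4 and 13.2 CPM in those cells, close to plasma cell-like cells (18.0, 12.2, 18.7 and 11.9 CPM). For each 100 Tyrobp UMIs there were 1526, 5857, 2400 and 5027 Trem2 UMIs in mesothelial-like cells, against 54.1, 52.9, 54.5 and 52.3 in lipid-associated, 44.5, 47.1, 48.8 and 42.7 in resident and 29.3, 28.9, 27.1 and 28.6 in Arg1-high macrophage-like cells. The 8 macrophage markers summed to 225, 90.2, 93.1 and 81.1 CPM in mesothelial-like cells and to 9445 to 10781 CPM in lipid-associated macrophage-like cells, and the 6 mesothelial markers summed to 3324, 3879, 3333 and 3776 CPM in mesothelial-like cells and to at most 11.2 CPM in lipid-associated ones. Among mesothelial-like cells with a Trem2 UMI after thinning, 4.12% to 5.56% had a Tyrobp UMI, and among those without one 0% to 6.25% did, in groups of as few as 16 cells. Gpnmb (12.0 to 25.9 CPM) and Atp6v0d2 (0.802 to 3.38 CPM) were low in mesothelial-like cells as well. Unnamed cluster 7, led by Cxcl13, Cxcl5 and Saa3 and with both adipose progenitor and mesothelial markers raised, showed a smaller form of the same ratio, with Trem2 at 93.7, 76.8, 93.9 and 84.3 CPM and 435 to 596 Trem2 UMIs per 100 Tyrobp UMIs.

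**Figure D2:**
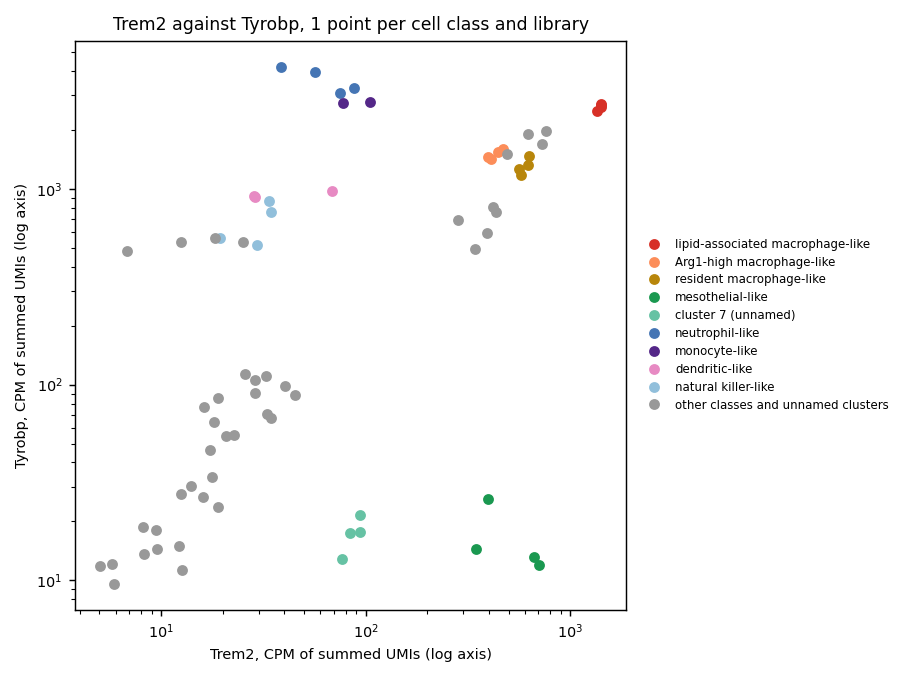
Trem2 level (horizontal, CPM, log axis) against Tyrobp level (vertical, CPM, log axis), 1 point for each class or unnamed cluster and library with at least 20 cells. Mesothelial-like points lie at 347 to 702 CPM of Trem2 with 12.0 to 25.9 CPM of Tyrobp, neutrophil-like points at 38.7 to 87.5 CPM of Trem2 with 3084 to 4212 CPM of Tyrobp.

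Trem2 of mesothelial-like cells was lower in Tom+ than in Tom- libraries in both pairs, by a log2 ratio of −0.83 in the CD45- pair and −0.94 in the CD45+ pair, which does not reach 2-fold (2.24% and 4.77% of genes were past 2-fold). Without the 18 cells of a second small mesothelial-like cluster the levels were 403 against 710 CPM and 398 against 671 CPM. The share of cells with a thinned Trem2 UMI did not move with it (54.5% against 52.8%, and 52.9% against 50.9%). The level over single cells did. Its 25th percentile was 77.9, 138, 113 and 118 CPM, its median 288, 372, 188 and 345 CPM and its 90th percentile 1030, 1745, 836 and 1706 CPM. The 7 markers of the lipid-associated kind summed to 334, 275, 285 and 281 CPM in mesothelial-like cells. The Tom+ values rest on 68 and 34 cells, and the part of the higher macrophage marker sum in the library labelled CD45- Tom+ was not tested.

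Tyrobp, the adaptor shared by many myeloid and natural killer cell receptors, ranged more widely over blood-derived classes than Trem2. Neutrophil-like cells had 3084, 3274, 3968 and 4212 CPM, monocyte-like cells 2777 and 2755 CPM, and lipid-associated macrophage-like cells 2495, 2675, 2604 and 2708 CPM. The ranges over libraries did not overlap between these neighbours. The monocyte-like values rest on 1344 and 1707 UMIs from 46 and 52 cells, however, and stood little above the lipid-associated ones. Arg1-high (1422 to 1597 CPM) and resident (1178 to 1477 CPM) macrophage-like cells overlapped each other. Dendritic-like cells had 976, 919 and 907 CPM, so they carried the adaptor with only 7.0, 3.09 and 3.19 Trem2 UMIs per 100 Tyrobp UMIs. Natural killer-like cells (516 to 870 CPM) and mast-like cells (481 to 560 CPM) came next, and B cell-like cells had 76.9 to 113 CPM. Neutrophil-like cells had 0.919 to 2.67 Trem2 UMIs per 100 Tyrobp UMIs, at a median of only 3821 to 4887 UMIs per cell.

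Gpnmb had the largest excess in lipid-associated macrophage-like cells of the 6 genes. It was at 2308, 1929, 2325 and 1995 CPM there, against 333, 141, 284 and 275 CPM in Arg1-high and 265, 90.6, 230 and 254 CPM in resident macrophage-like cells. Unnamed clusters 18, 22 and 20 had 261 to 490, 198 to 619 and 184 to 339 CPM. The level was uneven from cell to cell: the median cell had 661, 754, 555 and 742 CPM, the 90th percentile was 4412 to 5585 CPM, the top 10% of cells held 55.5%, 45.7%, 55.8% and 54.4% of the Gpnmb UMIs, and 61, 34, 28 and 34 cells had none. Dendritic-like cells were at 32.1, 11.8 and 13.7 CPM and monocyte-like cells at 10.3 and 3.23 CPM.

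Adipose progenitor-like cells, the stromal precursors of adipocytes, had a steady lower Gpnmb level of 162, 169, 161 and 173 CPM, with counting intervals that overlapped between all 4 libraries. Between 24.5% and 28.1% of them had a Gpnmb UMI after thinning, against 2.77% to 5.13% of plasma cell-like cells. Within the progenitors Gpnmb was highest in the clusters led by Inmt and Mmp11 (201 to 250 CPM) and by Cpxm2 and Sfrp1 (194 to 252 CPM) and lower in the cluster led by Fgf10 (69.7 to 106 CPM). Because progenitors were many in the Tom- libraries, they gave 39.4% and 34.1% of all Gpnmb UMIs there and 2.8% and 2.6% in the Tom+ libraries, where lipid-associated macrophage-like cells gave 74.0% and 69.5%.

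Cd9, the tetraspanin, did not follow the lipid-associated kind. It was highest in neutrophil-like cells (1313, 1582, 1687 and 1921 CPM) and lymphatic endothelial-like cells (1045 and 985 CPM, found in number only in the Tom+ libraries). Among macrophage-like cells Arg1-high cells led with 833, 914, 791 and 879 CPM, above resident cells (460, 627, 347 and 488 CPM) and lipid-associated cells (396, 385, 375 and 424 CPM), and the ranges of these last kinds overlapped. Mesothelial-like (295 to 310 CPM) and adipose progenitor-like cells (276 to 301 CPM) were close behind, and dendritic-like cells had 161, 184 and 191 CPM. A pair of annotated genes overlap Cd9 on the other strand, of which Gm28809 has a row of its own and shares no exon base with it.

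Spp1, which encodes osteopontin, was a gene of the Arg1-high rather than the lipid-associated kind. Arg1-high macrophage-like cells had 4651, 3355, 4217 and 3924 CPM, resident cells 1927, 2809, 666 and 2049 CPM and lipid-associated cells 1161, 567, 1115 and 1534 CPM. The last kinds overlapped, and neutrophil-like cells, next in order by median, had 122 to 389 CPM. Unnamed clusters 20, 22 and 18 had 226 to 1018, 116 to 945 and 74.9 to 342 CPM. In lipid-associated cells the sum was carried by few cells: the median cell had 154, 122, 116 and 102 CPM and the top 10% of cells held 76.3%, 60.1%, 80.8% and 89.5% of the Spp1 UMIs. In Arg1-high cells the median cell had 1670, 1109, 1536 and 1551 CPM. Dendritic-like cells had 37.5, 119 and 64.5 CPM. Gm42793, annotated on the same strand, shares 309 exon bases with Spp1 and has no row of its own.

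**Figure D3:**
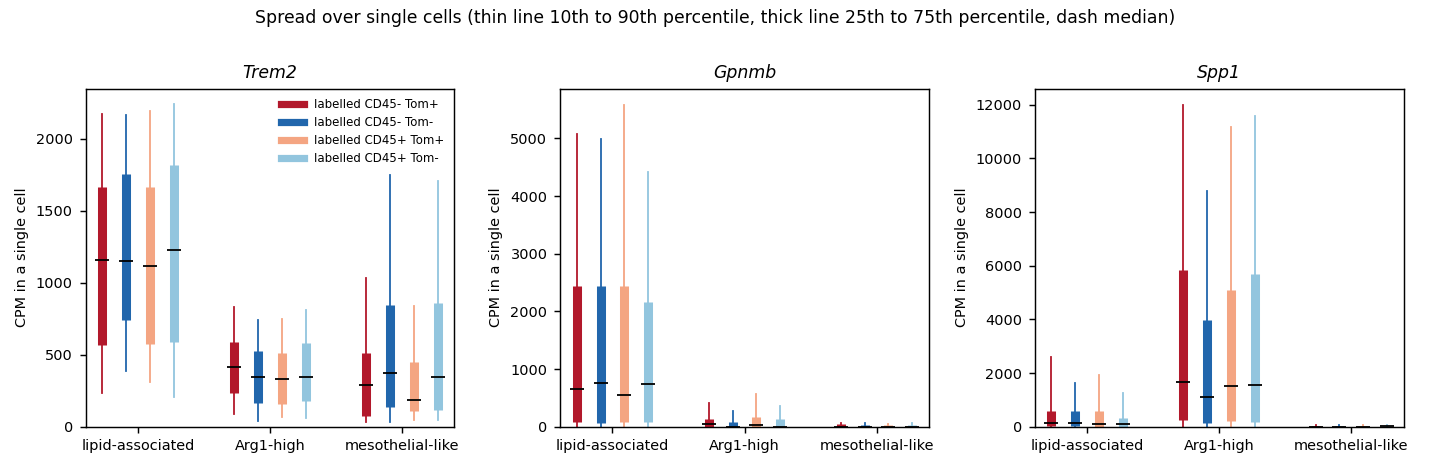
CPM in single cells for Trem2, Gpnmb and Spp1 in lipid-associated, Arg1-high and mesothelial-like cells; thin lines run from the 10th to the 90th percentile, thick lines from the 25th to the 75th, dashes mark medians, and colours the libraries. Trem2 had medians of 1116 to 1226 CPM in lipid-associated cells, and Spp1 had medians of 102 to 154 CPM there against 1109 to 1670 CPM in Arg1-high cells.

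Atp6v0d2, the V-ATPase subunit, was the member most restricted to macrophage-like classes. Lipid-associated cells had 486, 481, 510 and 486 CPM, resident cells 108, 75.8, 178 and 127 CPM and Arg1-high cells 85.5, 44.0, 52.1 and 59.0 CPM. Outside the macrophage-like cells and unnamed clusters 18, 20 and 22, no class or cluster with at least 20 cells passed 30.8 CPM. Dendritic-like cells had that value in the library labelled CD45- Tom+ with 23 UMIs and had 1.77 and 6.60 CPM in the Tom- libraries. No UMI was found in monocyte-like cells of the library labelled CD45- Tom- or in plasma cell-like cells of the library labelled CD45+ Tom-, where a count of 3 would be 6.2 and 1.37 CPM.

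Set side by side, 3 of the 6 genes were at least 2-fold higher in lipid-associated than in other macrophage-like cells of every library, where 1.77% of 8530 genes were. The log2 ratios were 1.41, 1.72, 1.57 and 1.60 for Trem2, 2.92, 3.83, 3.16 and 2.87 for Gpnmb, and 2.36, 3.35, 2.22 and 2.85 for Atp6v0d2. Tyrobp was higher by 0.78, 0.92, 0.97 and 0.81. Spp1 was the 1 of 6 at least 2-fold lower in every library (−1.60, −2.54, −1.22 and −1.27), where 5.05% of genes were, and Cd9 was lower by log2 ratios of −0.77, −1.20, −0.65 and −0.97. The median log2 ratio of all genes tested was −0.13, −0.10, −0.10 and −0.09. The clusters were made from the same cells, so these ratios describe them and are no test. Counting clusters 18, 20 and 22 among the other macrophage-like cells left Trem2, Gpnmb and Atp6v0d2 past 2-fold and ended the Spp1 count, with log2 ratios of −0.12, −2.39, 0.04 and −1.0. It also turned Cd9 in both Tom+ libraries, to 0.34, −1.07, 0.44 and −0.75.

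A finer clustering, also made without the 6 genes, divided the lipid-associated cells into clusters between which all 6 genes differed in the same direction. The finer cluster led by Serpinb6b, Ctsk and Zranb3 (369 cells) was higher than the one led by the interferon-induced genes Ifit3, Ifit2 and Rsad2 (491 cells) in every library: Trem2 was at 1692 to 1861 against 977 to 1135 CPM and Gpnmb at 2795 to 3490 against 1034 to 1400 CPM. Atp6v0d2 was at 591 to 645 against 335 to 405 CPM, Cd9 at 539 to 685 against 175 to 236 CPM, and Tyrobp at 2740 to 3035 against 2294 to 2588 CPM. Spp1 ranged from 605 to 3033 CPM against 226 to 779 CPM, so its ranges overlapped. The first cluster was deeper, with a median of 32746 against 21033 UMIs per cell, and its part in the difference was not tested.

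Among Arg1-high cells, the Spp1 ranges of the finer clusters did not overlap. Spp1 was at 6959 to 8668 CPM in the cluster led by Slpi and Prg4 (259 cells), at 3095 to 4404 CPM in the cluster led by Cxcl3 and Met (529 cells) and at 527 to 763 CPM in the cluster led by the monocyte genes Ccr2, Il1b and Plac8 (322 cells). Cd9 was at 992 to 1111, 973 to 1104 and 235 to 424 CPM in the same order, so it was low in the monocyte-gene cluster only. Trem2 was lowest in that cluster too (239 to 372 CPM), whereas Tyrobp was at 1580 to 1931 CPM there, against 1210 to 1583 CPM in the cluster led by Slpi. Among the resident kind, the cluster led by Marco and Vsig4 (314 cells) had 963 to 3526 CPM of Spp1 and 474 to 673 CPM of Cd9, and the one led by Cd209f and Ccl7 (154 cells, of which 51.9% were of the resident kind) had 44.6 to 431 and 70.1 to 116 CPM.

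**Figure D4:**
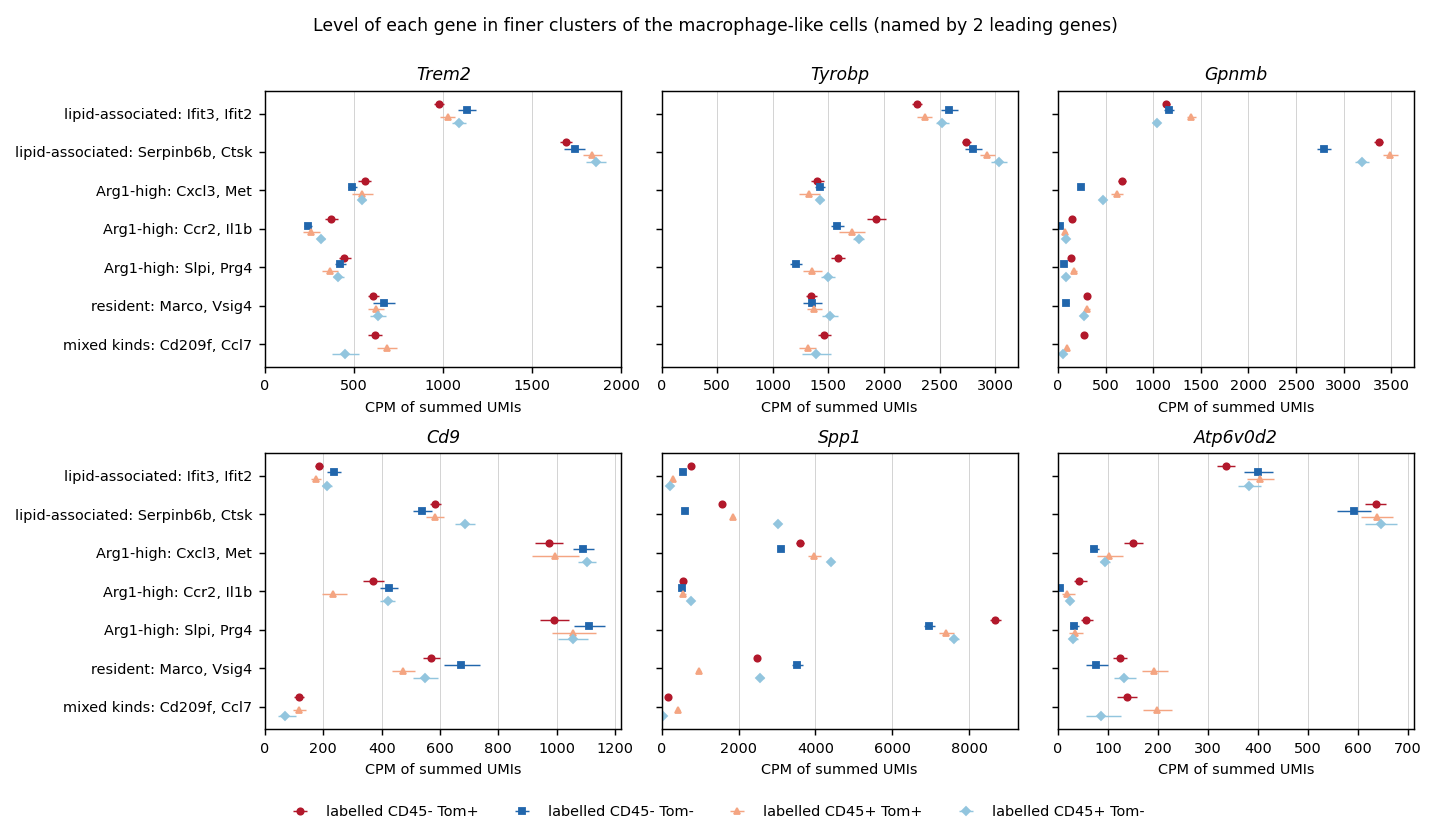
CPM of summed UMIs (bars are 95% counting intervals) for the 6 genes in finer clusters of the macrophage-like cells, labelled by kind and 2 leading genes; 1 symbol per library with at least 20 cells. All 6 genes were higher in the Serpinb6b and Ctsk cluster than in the Ifit3 and Ifit2 cluster of the same library.

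Within the lipid-associated cells, Gpnmb, Atp6v0d2 and Spp1 were found in a larger share of cells with a Trem2 UMI than of cells without one, which in sparse counts is a description only. After thinning to 2000 UMIs, Gpnmb was found in 70.4%, 68.7%, 66.4% and 69.5% of cells with a Trem2 UMI and in 32.6%, 39.3%, 35.5% and 25.6% of cells without one. Atp6v0d2 was found in 51.8%, 50.7%, 57.2% and 53.9% against 27.9%, 35.7%, 35.5% and 30.8%. Spp1 was found in 44.0%, 37.3%, 36.8% and 37.7% against 17.4%, 21.4%, 29.0% and 12.8%. Cd9 differed in direction: it was found in 33.6% against 39.3% of the cells of the library labelled CD45- Tom-, and in more of the cells with Trem2 in the other 3 libraries.

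Tom+ was compared with Tom- to ask whether the p16 reporter goes with another level of these genes. Over all macrophage-like cells, 0 of 6 genes were past 2-fold in the CD45- pair, where 2.12% of genes were, and 0 of 6 in the CD45+ pair, where 2.59% were. Over both pairs, 0.751% of genes were higher and 0.82% lower in Tom+ by at least 2-fold. Trem2 had log2 ratios of 0.38 (1014 against 781 CPM) and 0.35 (1027 against 807 CPM), Gpnmb 0.96 and 0.72, and Atp6v0d2 0.71 and 0.66, Tom+ over Tom-, in the CD45- and the CD45+ pair. Tyrobp had 0.16 and 0.08, Cd9 −0.48 and −0.56, and Spp1 −0.15 and −0.75. The portion of lipid-associated cells moved with these ratios, at 51.8% against 28.5% and 46.7% against 28.3% of macrophage-like cells. With the macrophage clusters weighted to 1 mix, Trem2 had −0.01 and −0.05, Gpnmb 0.39 and 0.18, and Atp6v0d2 0.16 and 0.09. Counting clusters 18, 20 and 22 as macrophage-like turned Trem2 to −0.12 and −0.02 and gave Cd9 −0.97 and −1.02 and Spp1 −0.83 and −1.25. With barcodes found in more than 1 library left out, Gpnmb (1.48 and 1.29) and Atp6v0d2 (1.22 and 1.12) were past 2-fold in both pairs and Trem2 had 0.63 and 0.50.

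Within lipid-associated macrophage-like cells alone the levels were close. Trem2 had a log2 ratio of −0.07 (95% interval −0.11 to −0.02) in the CD45- pair and 0.00 (−0.04 to 0.05) in the CD45+ pair, Atp6v0d2 0.01 and 0.07, Tyrobp −0.10 and −0.06, Cd9 0.04 and −0.18, and Gpnmb 0.26 and 0.22. Spp1 was the 1 of 6 past 2-fold in the CD45- pair (1.03), where 1.55% of genes were, and it was lower in Tom+ in the CD45+ pair (−0.46), where 0 of 6 genes and 1.91% of all genes were past 2-fold. With barcodes that occur in more than 1 library left out, the Spp1 ratios were 0.66 and 1.33. In these cells tdTomato was at 579, 20.4, 573 and 19.0 CPM, and Cdkn2a, the p16 gene itself, at 5.54, 10.4, 6.41 and 10.6 CPM from 61, 41, 32 and 57 UMIs.

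**Figure D5:**
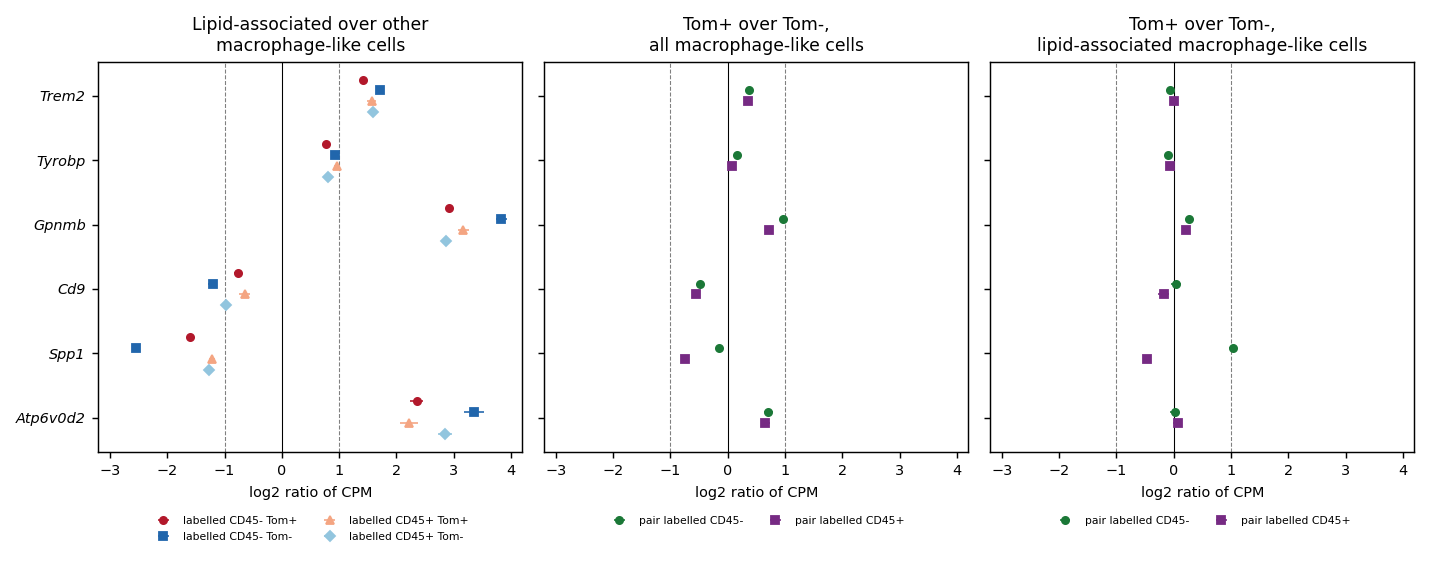
Log2 ratios of CPM for the 6 genes with 95% counting intervals: lipid-associated over other macrophage-like cells in each library (left), and Tom+ over Tom- in all macrophage-like cells (middle) and in lipid-associated cells (right) for each pair of libraries; dashed lines mark 2-fold. Trem2, Gpnmb and Atp6v0d2 lie beyond 2-fold at the left, and only Spp1 of the CD45- pair does at the right.

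In the other kinds, Gpnmb was the 1 of 6 past 2-fold in the CD45- pair in Arg1-high cells (1.24, where 1.93% of genes were past 2-fold) and in resident cells (1.55, where 7.99% were). In the CD45+ pair it had 0.05 in Arg1-high cells, where 0 of 6 members and 2.98% of genes were past 2-fold, and −0.14 in resident cells, where Spp1 was the 1 of 6 (−1.62; 7.68% of genes). Each of these rests on 42 to 453 cells a library.

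Genes around TREM2 signalling were set beside Trem2 as fixed lists. In the single libraries 3.01%, 6.57%, 3.8% and 5.65% of all genes were at least 2-fold higher in lipid-associated cells and 8.06%, 9.49%, 8.66% and 9.08% lower. Of 12 signalling genes, 0 were at least 2-fold higher in lipid-associated cells of any library, and 1, 2, 2 and 1 were at least 2-fold lower. Their median log2 ratio was −0.43, −0.23, −0.23 and −0.36. Syk, the kinase bound by DAP12, had ratios of 0.18 to 0.41, and Hcst, the DAP10 adaptor, 0.15 to 0.33. Adam10, a protease that sheds TREM2, was more than 2-fold lower in all 4 libraries (log2 ratios of −2.04 to −2.38), named after its value was seen. The other TREM family members and DAP12 partners were low: 5 or 6 of 10 passed the 5 CPM minimum in a library and 3 to 5 of these were at least 2-fold lower, and Trem1 (−5.50 to −6.63, at most 1.54 CPM in lipid-associated cells) and Treml4 (−2.70 to −3.57) were lower in every library. Trem1 (−1.19 and −1.24), Trem3 (−1.23 and −1.01) and Treml4 (−1.55 and −1.04) were also the 3 genes of all the lists past 2-fold between Tom+ and Tom- macrophage-like cells in both pairs, all lower in Tom+, where 0.82% of all genes were. Within single kinds 0 genes of the TREM family list were at least 2-fold lower in Tom+ in either pair: in Arg1-high cells Trem1 had −0.11 and −0.11, Trem3 −0.13 and 0.025, and Treml4 −0.84 and −0.11.

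Lists of lipid handling and lysosome genes had medians above 0 in all 4 libraries. Apoe, a TREM2 ligand, had ratios of 1.28, 2.18, 1.38 and 1.83 in lipid-associated over other macrophage-like cells, and 3 or 4 of the 12 genes of its list were at least 2-fold higher, and 1, 0, 2 and 0 lower, with medians of 0.68, 0.70, 0.59 and 0.59. Of the 12 lysosome and MITF/TFE genes, 5 were at least 2-fold higher in all libraries, which, named after their values were seen, were Lgals3, Lgals1, Ctsl, Cd68 and Cd63, and the list median was 0.66, 0.75, 0.62 and 0.74. Cd63, a lysosomal tetraspanin, had 1.29 to 1.65, while Mitf, a transcription factor of lysosomal genes, had −0.33 to −0.87. Over all macrophage-like cells together, neither list had a gene past 2-fold between Tom+ and Tom-. Within single kinds Clu, named after its values were seen, was the 1 such gene, at −2.13 in Arg1-high cells of the CD45+ pair and at −1.07 and 1.93 in resident cells of the CD45- and the CD45+ pair.

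Cd81, Ptgfrn, Cd44 and Itgav, which encode partners of CD9 or osteopontin, had ratios below 0 in all 4 libraries, as Cd9 and Spp1 did. Apart from Cd53, the other genes set beside Cd9 did not. Of 8 tetraspanins and partners, 0 or 1 was at least 2-fold higher and 1 lower in lipid-associated cells of each library. The lower one, named after its values were seen, was Ptgfrn, a CD9 partner (−2.41, −2.72, −2.05 and −2.16), and Cd81 had −0.20 to −0.83. The list median was −0.02, 0.30, 0.09 and 0.40. Igsf8 (0.02 to 0.44), Cd151 (0.22 to 0.76), Cd82 (0.54 to 0.80) and Tspan4 (0.75 to 1.96) were above 0 in all 4 libraries. Cd53 was below 0 in all 4 and Cd37 went both ways, and these genes too were named after their values were seen. Of 8 osteopontin receptor genes 7 passed the 5 CPM minimum, and of these 0 were at least 2-fold higher and 1, 1, 0 and 3 lower. Cd44 was at −0.59 to −1.21 and Itgav at −0.52 to −0.66. Itgb1, Itgb5, Itga4 and Itga5, named after their values were seen, were below 0 in all 4 libraries too, and Itga9 went both ways. Of 18 V-ATPase subunit symbols listed, 17 had a row in the count tables and at most 1 of them was at least 2-fold higher in a library. Atp6v0d1, the paralog that most cells use in place of Atp6v0d2, had −0.25 to −0.54. Of 7 osteoclast and fusion genes 3 passed the 5 CPM minimum, with a list median between −0.76 and 0.59.

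Across 74 points of class and library, which share libraries and cell types, the genes closest to each member by Pearson's r of log2(CPM + 1) differed. Trem2 was closest to Lgals3 (0.90), B4galt6 (0.88), Rab7b (0.87), Ctsb (0.86) and Slc27a1 (0.86). Tyrobp was closest to Fcer1g (0.98), which encodes the related Fc receptor gamma adaptor, then to Cd300a, Fcgr3, Cd300c2 and Lilr4b (0.95 to 0.92). Gpnmb was closest to Pltp, Lpl, Rab3il1, Ctsb and Pld3 (0.84 to 0.82), and Cd9 to Ehd1, Tgm2, Arrdc4, App and Rin2 (0.88 to 0.81). Spp1 was closest to Arg1, Atp6v1c1, Ccl6, C1qa and C3ar1 (0.88 to 0.86), and Atp6v0d2 to C1qa, C1qb, C1qc, Pf4 and Ms4a7 (0.94 to 0.92). Among the members the closest pair was Gpnmb and Atp6v0d2 (0.80) and the most distant Cd9 and Atp6v0d2 (0.27), with Trem2 and its adaptor Tyrobp at 0.55.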

How the data were processed

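The authors aligned 10x 3' reads to mm10 with a tdTomato sequence added and deposited UMI count matrices made with Cell Ranger 3.0.2 (per the labels), 1 per library. From these counts, barcodes were taken when they held between 1000 and 7000 genes and mitochondrial UMIs stayed below 8% (4145, 4038, 1981 and 4818 barcodes), and the highest Scrublet scores (0.8% per 1000 barcodes) were left out as doublets. Cells were clustered with scanpy 1.11.5 (2000 variable genes without the 6 genes and the listed genes, 30 components, 15 neighbours, Leiden resolution 1 with leidenalg 0.10.2, and 2 for finer clusters). A cluster was named when at least 3 markers of 1 class stood at 20 CPM or more and 4-fold above the median cluster; these limits were set after seeing the data, as were the finer clusters. UMIs were summed per class and library and divided by their total (CPM), with no level or ratio where a library had under 20 cells of a class. Intervals are exact Poisson for CPM, Clopper-Pearson for shares and conditional exact for ratios (scipy 1.17.1). Genes entered a comparison at a mean of 5 CPM. With 1 library per group no test was run, and 2-fold was the size rule. For shares, each cell was thinned to 2000 UMIs, which left out 13, 21, 0 and 26 shallower cells.

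The ratio calculation was checked on simulated counts, in which 100% of 200 changed genes were recovered (8886 and 8888 genes in all). There, 95.3% (CD45- pair) and 95.0% (CD45+ pair) of intervals held the true ratio. The counts were drawn with counting error only, and every planted change was larger than 2-fold. The check therefore cannot show how the ratios behave under spread between cells or libraries. The 6 genes, the gene lists and the classes compared were chosen with earlier results of these data known. List genes were named when past 2-fold between Tom+ and Tom- in both pairs, when 4-fold higher in lipid-associated cells in all libraries (none was), or as a fixed set of partners of the 6 genes. Nearest genes were ranked by correlation among genes reaching 20 CPM. Coordinates are from GENCODE vM21.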

Additional observations from a re-analysis of the deposited data

Results flagged for a closer look

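The Tom+ over Tom- log2 ratio of a gene was listed when it pointed one way in the CD45- pair and the other way in the CD45+ pair, with counting intervals that exclude 0. The differences between the pairs were not tested, since each pair is 1 library against 1. In Arg1-high macrophage-like cells this held for Trem2 (0.19 in the CD45- pair and -0.16 in the CD45+ pair) and Tyrobp (0.17 and -0.085). In unnamed cluster 22, which had macrophage and T cell markers raised, it held for Trem2 (-0.64 and 0.22) and Spp1 (-0.68 and 3.03). The ratios of cluster 22 rest on only 53, 30, 24 and 40 cells, and its Spp1 level ranged from 116 to 945 CPM over the libraries. Spp1 also turned in lipid-associated macrophage-like cells (1.03 and -0.46, but 0.66 and 1.33 with barcodes found in more than 1 library left out), in adipose progenitor-like cells (1.12 and -1.25) and in mesothelial-like cells (2.09 and -0.86). The last levels were low, at 10.4 to 63.5 CPM in adipose progenitor-like and 12.8 to 92.9 CPM in mesothelial-like cells, against 30.5 to 65.3 CPM in B cell-like and 9.68 to 18.5 CPM in plasma cell-like cells. In the library labelled CD45- Tom+, 7 of 68 mesothelial-like cells held 84.2% of 165 Spp1 UMIs and 27 of 267 adipose progenitor-like cells 78.6% of 384. In the library labelled CD45+ Tom+ these classes had 16 and 28 Spp1 UMIs in all. Spp1 was uneven between single macrophage-like cells too, with 60.1% to 89.5% of its UMIs in the top 10% of lipid-associated cells of a library.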

How the results depend on the processing

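No paired analysis was possible because the labels give no replicate numbers; Tom+ and Tom- libraries of the same CD45 label were set side by side as values, and no model across the 2 pairs was run. Trem2, Gpnmb and Atp6v0d2 stayed at least 2-fold higher in lipid-associated than in other macrophage-like cells of every library under all alternatives run, so the count was 3 throughout. The count at least 2-fold lower (Spp1, 1 of 6) was 0 with the looser filter (500 genes, 20% mitochondrial UMIs) and 0 with the unnamed clusters counted as macrophage-like, where the Spp1 ratio of the library labelled CD45+ Tom+ turned from -1.22 to 0.040. The count of members past 2-fold between Tom+ and Tom- macrophage-like cells, 0 in each pair, was 1 in the CD45- pair with marked doublets kept, 1 with the looser filter and 1 with median-of-ratios size factors (Gpnmb each time, at 1.05, 1.08 and 1.02). With barcodes found in more than 1 library left out it was 2 in the CD45- pair, 2 in the CD45+ pair and 2 in both (Gpnmb 1.48 and 1.29, Atp6v0d2 1.22 and 1.12), and with the unnamed clusters counted it was 2 in the CD45+ pair (Cd9 and Spp1). Over all genes the count past 2-fold, 188 in the CD45- pair and 231 in the CD45+ pair, was 359 and 452 with doublets kept, 439 and 567 with the looser filter, 614 and 789 after thinning, 535 and 486 with the unnamed clusters counted, 102 and 142 at the same mix of macrophage clusters and 605 and 676 at a mean of 1 CPM. It was 294 in the CD45- pair without shared barcodes. The causes of these shifts were not tested, beyond the lower minimum testing more genes. Of 540 ratios of the 6 genes recomputed, 207 fell within the reported counting interval, 332 outside it, and 1 that was past 2-fold reversed. Counting the unnamed clusters, and keeping a shared barcode only where it had most UMIs, were added after seeing the data; the latter left 46 of 48 ratios within their interval. Depth limits the classes with few cells: dendritic-like and monocyte-like levels rest on 38 to 98 cells a library, and 1 library per group leaves the spread between animals unknown.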
